A study of Homo sapiens with 12 samples.

Results

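Splicing removes introns from newly made transcripts. Here 54 genes with symbol prefixes of splicing factor families were followed across 4 drug treatments of a melanoma cell line. Membership rests on the symbol alone, not on a shown role in splicing. The members are the protein-coding genes with a named row on the array whose symbol begins with SRSF, HNRNP, SF3A, SF3B, SNRP, PRPF or U2AF, or with LSM and a number, each read from its brightest row. They are 54 of 14599 genes with a named row, of which 11733 are protein-coding. RefSeq holds 87 coding genes with these prefixes. The members cover 11 of 12 SNRP genes, 3 of 3 U2AF genes, 10 of 12 PRPF genes, 9 of 12 SRSF genes, 20 of 26 HNRNP genes and 1 of 13 LSM genes, LSM12. The SF3A and SF3B genes, SRSF1, HNRNPU, SNRPN and LSM2 were not analysed here.

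Hs695T is a human melanoma line, grown in RPMI with serum, and RNA was taken after 24 h of treatment. The vehicle group received DMSO. The MAPKi group received 100 nM dabrafenib, an inhibitor of mutant BRAF, with 10 nM trametinib, an inhibitor of MEK, so that the group tests both drugs jointly and neither alone. The HDACi group received 1 µM entinostat, which blocks class I histone deacetylases. The combination group received all 3 drugs at the same doses. Each group had 3 Affymetrix arrays. The sample titles call them biological replicates and the design text technical triplicates, so every p-value covers only the spread between these arrays, and the line is a single model. Of the melanocyte markers, S100B (mean log2 11.49) and SOX10 (9.96) were bright in vehicle arrays, whereas the pigment genes MLANA (4.27) and TYR (3.81) were dim. MITF (6.09), PMEL (6.07) and EDNRB (5.86) also lay below the median gene of these arrays, and DCT was not analysed here. Thus 2 of the 7 melanocyte markers measured lay above that median. Markers of fibroblasts were near the floor of the array (DCN 2.71, LUM 2.82), KRT8 and EPCAM of epithelium read 6.76 and 5.58, and the other 6 of 10 markers listed for other cell types were not analysed here.

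The spliceosome is built from small nuclear ribonucleoproteins (snRNPs), each a small RNA carrying a ring of Sm proteins and particle-specific proteins. U1 and U2 recognise the ends of the intron, with the U2AF heterodimer placing U2 at the branch site, and the PRPF proteins of the tri-snRNP and the Prp19 complex then turn the assembly into an active enzyme. SR proteins and hnRNPs bind the transcript itself, where SR proteins mostly promote and hnRNPs often oppose the use of nearby splice sites.

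All values were compared on the log2 scale of the deposited intensities. On that scale most of the array was dimmer after treatment: the median intensity of an array was 53.3 ± 3.77 in vehicle, 39.3 ± 1.67 with MAPKi, 49.7 ± 1.68 with HDACi and 36.0 ± 3.46 with the combination (mean ± SD, n = 3). The median gene fell by 0.48 with MAPKi, by 0.20 with HDACi and by 0.72 with the combination. Counts and the main single values are therefore also given after quantile normalization, which sets all arrays to the same distribution and so removes a general shift. These are called the deposited and the quantile scale. In bulk RNA, fewer cells and less RNA per cell cannot be told apart, and no value here separates either from the scaling of the arrays.

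The splicing factor genes were lower after every treatment, and lowest with the combination. The members' median log2 intensity was 8.80 to 8.96 in the vehicle arrays, 7.82 to 8.10 with MAPKi, 8.22 to 8.24 with HDACi and 7.32 to 7.43 with the combination, and no array of one group overlapped another group. With MAPKi, 47 of 54 members were lower than in vehicle and 0 were higher at an adjusted p under 0.05, where 66.2% of all genes were lower and 2.97% higher. With HDACi, 45 were lower and 1 was higher, HNRNPLL, against 37.2% and 10.4% of all genes. With the combination, 52 were lower and 0 higher, against 74.3% and 4.38%. The median member changed by -0.86, -0.64 and -1.50, each below the median gene. Without the dimmest 40% of genes, 47, 43 and 48 of the 48 members left were lower. Of all genes left, 87.2%, 59.7% and 90.6% were lower, so the members then stood out less from the array.

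After quantile normalization the shares of lower and higher genes were near each other over the array, and the members still leaned downward. With MAPKi, 19 members were lower and 6 higher, where 13.9% of all genes were lower and 15.1% higher. With HDACi, 29 were lower and 3 higher, against 21.1% and 18.5%. With the combination, 33 were lower and 6 higher, against 24.2% and 22.1%. The members' medians were -0.13, -0.26 and -0.42 on this scale, where the medians of all genes were 0.01, -0.04 and -0.03. Lower on both scales were 19 members with MAPKi, 28 with HDACi and 33 with the combination. Some members passed as lower on the deposited and as higher on the quantile scale, so that their direction turned with the scaling: 5 with MAPKi (HNRNPLL, SRSF5, SRSF6, SRSF8 and SRSF11), 0 with HDACi and 6 with the combination (HNRNPA1, HNRNPC, HNRNPLL, SRSF5, SRSF6 and SRSF11). The shares of all genes that were lower on both scales, or that turned in this way, were not counted.

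**Figure D1:**
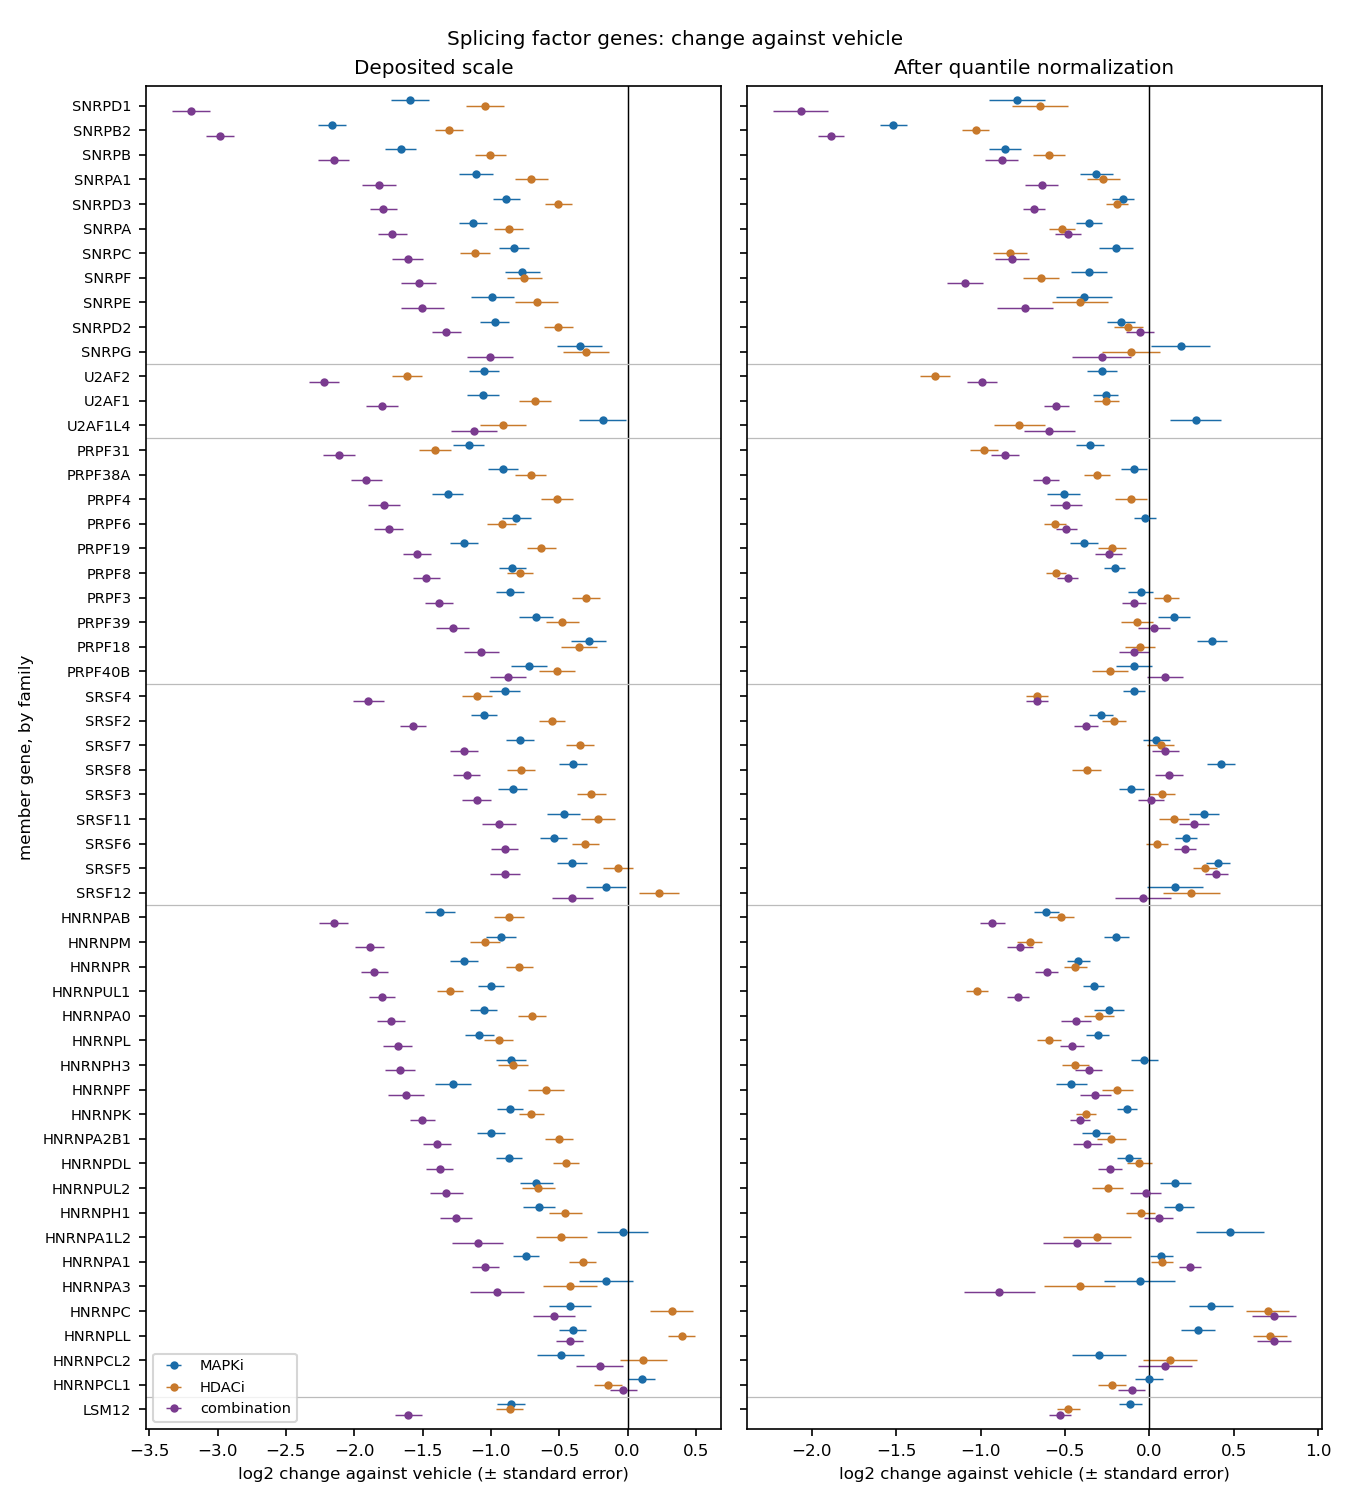
Log2 change against vehicle of each of the 54 members (rows, grouped by family) with MAPKi, HDACi and the combination, on the deposited scale (left) and after quantile normalization (right). Points are estimates from 3 arrays a group and bars are standard errors. On the left nearly all points lie below 0, with SNRPD1 and SNRPB2 lowest in the combination. On the right the SNRP genes remain mostly below 0 while the SRSF genes lie on both sides of it.

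Over treatments, 42 members were lower than vehicle in all 3 on the deposited scale. The share of all genes lower in all 3 was not counted on either scale. This count and the one on the quantile scale below therefore cannot be set against the array. A further 5 were lower with MAPKi but did not pass as lower with HDACi: HNRNPC, HNRNPLL, SRSF5 and SRSF11, which were lower with the combination too, and HNRNPCL2, which did not pass there. The MAPKi call of HNRNPCL2 was lost without vehicle replicate 1 or 2 or MAPKi replicate 3 (adjusted p 0.059 to 0.12), and it passed with the combination without vehicle replicate 3 (0.043). HNRNPA1L2, PRPF18 and U2AF1L4 passed as lower with HDACi and not with MAPKi, HNRNPA3, SNRPG and SRSF12 passed with the combination alone, and HNRNPCL1 passed in none. On the quantile scale, 16 members were lower in all 3: SNRPA, SNRPA1, SNRPB, SNRPB2, SNRPD1, SNRPF, U2AF1, U2AF2, PRPF8, PRPF19, PRPF31, SRSF2, HNRNPAB, HNRNPL, HNRNPR and HNRNPUL1. These hold proteins of U1 and U2, the Sm ring, the U2AF heterodimer and the tri-snRNP. Another 13 passed as lower after HDACi but not after MAPKi, among them SRSF8, which passed as higher after MAPKi, and 3, HNRNPA2B1, HNRNPF and PRPF4, as lower after MAPKi but not after HDACi. Passing in one comparison and not in another is no test of a difference between them.

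Most members were bright, and bright genes fell more than dim ones over the whole array. With all genes ranked by mean log2 into 10 equal bins, 20 of the 54 lay in the brightest bin and 41 in the brightest 3, with a median mean log2 of 8.11 against 6.05 for all genes. Within the brightest bin, the median change was -0.95 for the 20 members and -0.74 for all genes with MAPKi, and -1.63 against -1.19 with the combination. With HDACi, the same bin had a member median of -0.75 and an all-gene median of -0.37. In the next bin, 17 members had medians of -0.86, -0.63 and -1.54 with MAPKi, HDACi and the combination, where all genes had -0.78, -0.45 and -1.32. Over all genes, the change thus moved with brightness, although the brightest bin fell less than the next with every treatment. In both bins the members' medians lay below those of all genes. The part of brightness in the single members' changes was not tested.

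**Figure D2:**
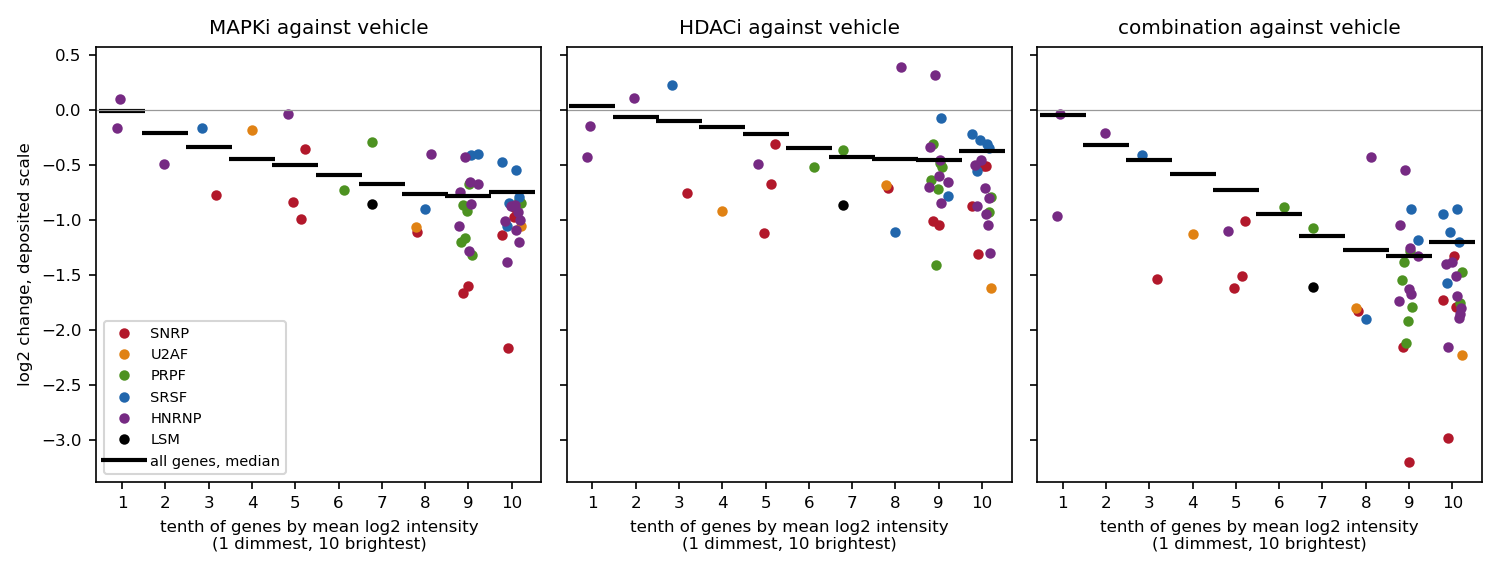
Log2 change against vehicle on the deposited scale (y axis) of the members, coloured by family, in 10 equal bins of all genes by mean log2 intensity (x axis, 1 dimmest to 10 brightest), for MAPKi, HDACi and the combination. Black bars are the medians of all genes in that bin, which with the combination lie near 0 in the dimmest bin, at -1.32 in bin 9 and at -1.19 in bin 10. Most members lie in the 2 brightest bins, and more of them below the black bar than above it.

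The snRNP proteins held the largest falls of all members with MAPKi and with the combination. All 11 SNRP genes were lower with the combination, and 10 of 11 with MAPKi and with HDACi, the exception being SNRPG in both, which passed with MAPKi without combination replicate 3 (adjusted p = 0.027) and with HDACi without HDACi replicate 1 (0.039). Their family medians were -0.99 with MAPKi, -0.75 with HDACi and -1.72 with the combination. After quantile normalization 6, 8 and 9 of the 11 were lower and 0 were higher, with medians of -0.36, -0.52 and -0.74. Of all genes, 13.9%, 21.1% and 24.2% were lower on that scale and 15.1%, 18.5% and 22.1% higher. On the deposited scale 66.2%, 37.2% and 74.3% of all genes were lower.

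SNRPB2 codes for the B'' protein of the U2 particle and SNRPB for a core Sm protein. Their upstream sequences are shown here because both genes were among the 3 largest falls with MAPKi and both carry the ETS-type letters CCGGAAG close to the start site, in capitals. Both come from RefSeq on GRCh38.p14 and cover the 250 bases before the start, chr20:16729776-16730025 on the plus strand for SNRPB2 and chr20:2470790-2471039 on the minus strand for SNRPB.
SNRPB2: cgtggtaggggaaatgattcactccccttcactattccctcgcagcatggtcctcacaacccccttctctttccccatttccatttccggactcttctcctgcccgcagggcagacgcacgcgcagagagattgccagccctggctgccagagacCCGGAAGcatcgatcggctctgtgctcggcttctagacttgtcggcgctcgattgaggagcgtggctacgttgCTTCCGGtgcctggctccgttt
SNRPB: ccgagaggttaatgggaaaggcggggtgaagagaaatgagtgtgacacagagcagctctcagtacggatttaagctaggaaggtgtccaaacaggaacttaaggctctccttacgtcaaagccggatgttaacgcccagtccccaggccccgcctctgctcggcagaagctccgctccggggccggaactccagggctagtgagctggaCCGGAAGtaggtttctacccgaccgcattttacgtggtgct
The match begins 95 and, on the opposite strand, 22 bases before the start in SNRPB2, and 41 bases before it in SNRPB.

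SNRPB2 read 11.47, 11.23 and 11.39 in the vehicle arrays, 9.19, 9.31 and 9.10 with MAPKi, 10.06, 10.01 and 10.10 with HDACi and 8.45, 8.28 and 8.42 with the combination. All 4 groups were separate, in the order vehicle, HDACi, MAPKi, combination. Against vehicle it fell by 2.16 ± 0.10 with MAPKi (standard error, 4.48-fold, adjusted p = 9.7e-11), by 1.30 ± 0.10 with HDACi (2.47-fold, 7.6e-08) and by 2.98 ± 0.10 with the combination (7.89-fold, 2.6e-12). The quantile values were -1.52, -1.03 and -1.89, so most of the fall remained once the general shift was removed. It was the member furthest below vehicle with MAPKi.

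SNRPB read 9.12, 8.92 and 8.97 in the vehicle arrays, 7.37, 7.47 and 7.18 with MAPKi, 7.90, 8.05 and 8.04 with HDACi and 7.03, 6.75 and 6.77 with the combination. Here too the groups did not overlap. The changes against vehicle were -1.66 ± 0.11, -1.005 ± 0.11 and -2.15 ± 0.11 with MAPKi, HDACi and the combination (quantile -0.85, -0.59 and -0.88). On the quantile scale the combination and MAPKi values of SNRPB were therefore close, and the difference between them was -0.02 on that scale and -0.49 (adjusted p = 0.0019) on the deposited one.

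SNRPD1, another protein of the Sm ring, read 9.33, 9.27 and 9.17 in the vehicle arrays, 7.81, 7.78 and 7.41 with MAPKi, 8.21, 8.07 and 8.37 with HDACi and 6.04, 5.84 and 6.31 with the combination. The combination arrays lay over 1 log2 unit below every array of the other groups. Its changes were -1.59 ± 0.14 with MAPKi, -1.04 ± 0.14 with HDACi and -3.19 ± 0.14 with the combination (9.16-fold, adjusted p = 1.9e-11), and the quantile values were -0.79, -0.65 and -2.07. The combination differed from MAPKi by -1.60 and from HDACi by -2.15, the largest such differences among members. Its interaction, the combination's departure from the sum of both single treatments, was -0.56 ± 0.20 with an adjusted p of 0.098 and did not pass. It passed without MAPKi replicate 3 (-0.69, 0.038) or combination replicate 3 (-0.69, 0.039).

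The other Sm proteins spread widely around these. With the combination, SNRPD3 changed by -1.79 (quantile -0.68), SNRPE by -1.50 (-0.74), SNRPF by -1.53 (-1.09), SNRPD2 by -1.33 (-0.06) and SNRPG by -1.01 (-0.28). SNRPD2 and SNRPG were the 2 SNRP genes that did not pass as lower on the quantile scale. SNRPG read 6.44, 6.30 and 6.30 in the vehicle arrays, 6.14, 5.90 and 5.95 with MAPKi, 6.36, 5.95 and 5.81 with HDACi and 5.59, 5.51 and 4.92 with the combination, and its HDACi arrays overlapped vehicle. SNRPE was measured by a second, dimmer row, which changed by -0.68, -0.75 and -1.17 with MAPKi, HDACi and the combination where the row used changed by -0.99, -0.67 and -1.50. The rows of SNRPE had the same direction in each of these.

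Of the particle-specific proteins, SNRPA and SNRPC belong to U1 and SNRPA1 to U2. SNRPA changed by -1.13, -0.87 and -1.72 with MAPKi, HDACi and the combination (quantile -0.35, -0.52 and -0.48), and SNRPA1 by -1.11, -0.70 and -1.82 (quantile -0.31, -0.27 and -0.64). SNRPC changed by -0.83, -1.12 and -1.61 (quantile -0.20, -0.82 and -0.81). Of these 3 genes, SNRPC alone passed as lower with HDACi than with MAPKi, on the deposited scale by 0.28 (adjusted p = 0.044) and on the quantile scale by 0.62 (adjusted p = 0.00023), where SNRPA stood lower by 0.16 without passing (0.11). The SNRPC call on the deposited scale was lost without any one of 7 single arrays (0.051 to 0.18, both MAPKi and HDACi arrays among them). On that scale SNRPA and SNRPA1 passed the other way, with MAPKi minus HDACi at -0.26 (adjusted p = 0.049) and -0.405 (0.013). The SNRPA call was lost without any one of 10 single arrays (0.051 to 0.18). That of SNRPA1 was lost without MAPKi replicate 3 (0.066) or HDACi replicate 2 (0.058).

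**Figure D3:**
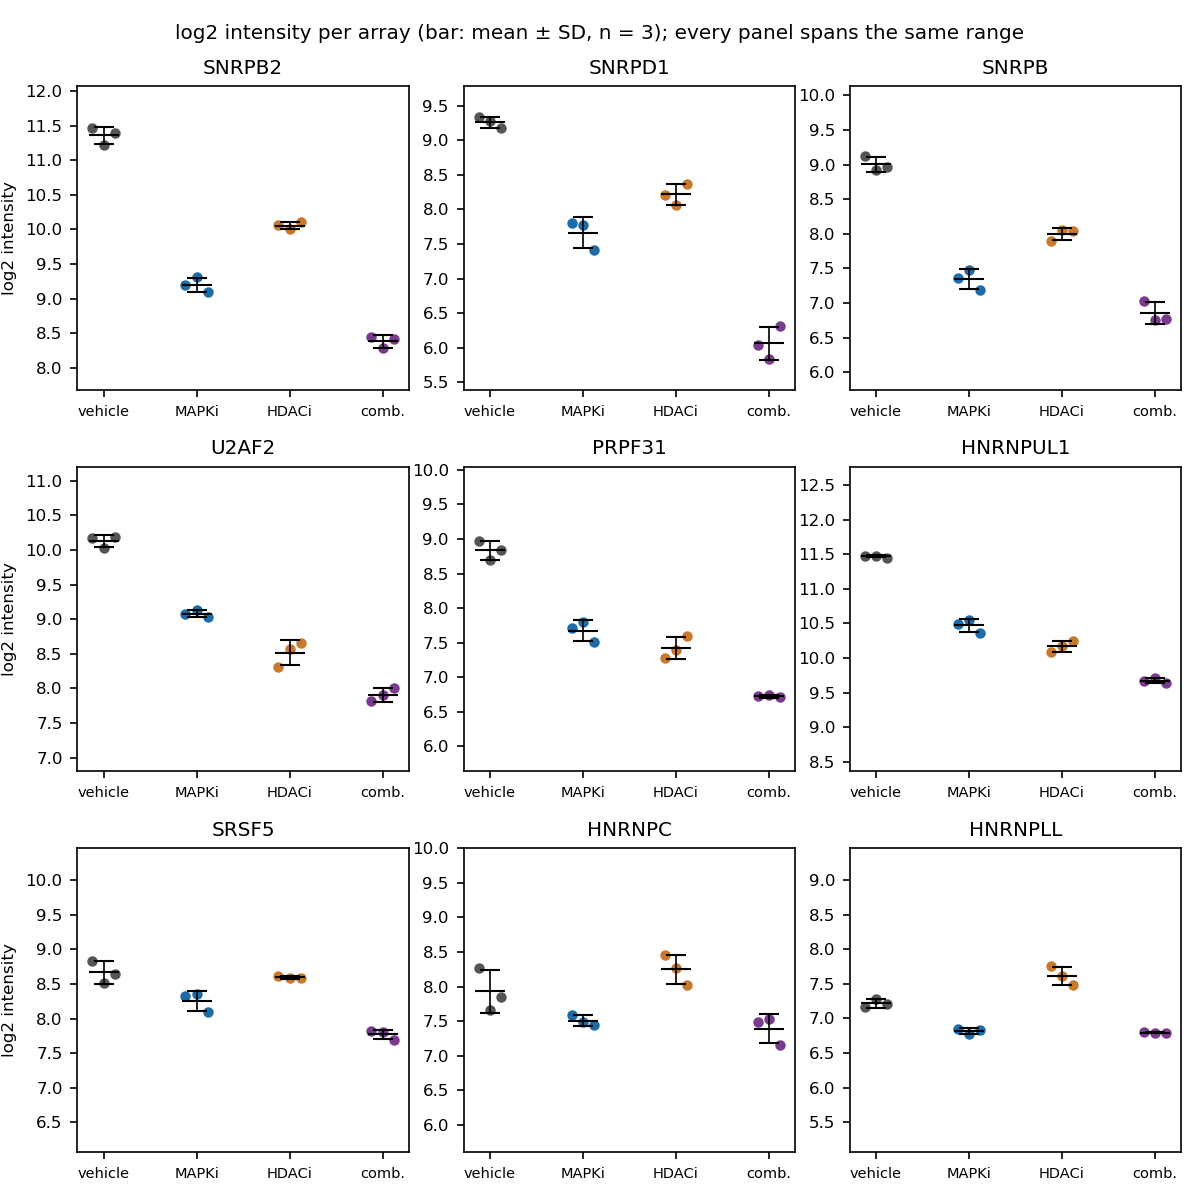
Log2 intensity on the deposited scale (y axis, the same span in every panel) in each of the 12 arrays for 9 members. Coloured points are single arrays, black bars the mean and SD of 3. SNRPB2, SNRPD1 and SNRPB are highest in vehicle, then with HDACi, then with MAPKi, and lowest with the combination. U2AF2 and HNRNPUL1 are lower with HDACi than with MAPKi, the PRPF31 arrays of these groups overlap, and HNRNPLL is highest with HDACi.

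U2AF2 and U2AF1 code for the large and small subunit of the U2AF heterodimer, which binds the polypyrimidine tract and the 3′ splice site. All 3 U2AF genes were lower with HDACi and with the combination on both scales. Of all genes, 37.2% and 74.3% were lower on the deposited scale, and 21.1% and 24.2% on the quantile scale. The sequence upstream of U2AF2 is shown because U2AF2 was the member furthest below vehicle with HDACi. It is chr19:55654785-55655034 on the plus strand of GRCh38.p14, from RefSeq, with GC boxes (GGGCGG, either strand, several overlapping) and the ETS-type letters in capitals.
U2AF2: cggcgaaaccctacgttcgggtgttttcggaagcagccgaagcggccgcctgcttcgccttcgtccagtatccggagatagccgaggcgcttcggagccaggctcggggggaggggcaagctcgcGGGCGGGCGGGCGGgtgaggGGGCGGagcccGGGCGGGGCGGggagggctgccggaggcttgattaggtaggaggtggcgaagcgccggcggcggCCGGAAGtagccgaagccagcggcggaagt
It holds 6 GC boxes between 125 and 89 bases before the start and 1 ETS-type match 30 bases before it.

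U2AF2 read 10.17, 10.03 and 10.19 in the vehicle arrays, 9.07, 9.14 and 9.03 with MAPKi, 8.31, 8.57 and 8.66 with HDACi and 7.81, 7.90 and 8.01 with the combination. The groups were separate, and here HDACi lay below MAPKi. It changed by -1.05 ± 0.11 with MAPKi, by -1.62 ± 0.11 with HDACi (3.07-fold, adjusted p = 1.7e-08) and by -2.22 ± 0.11 with the combination. The quantile values were -0.28, -1.27 and -0.99. U2AF2 was lower with HDACi than with MAPKi by 0.57 (adjusted p = 0.00045), and by 0.99 on the quantile scale. Against HDACi alone the combination stood at -0.61 on the deposited scale and at 0.28 on the quantile scale, so the direction of that difference rests on the scaling.

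U2AF1 read 8.61, 8.27 and 8.47 in the vehicle arrays, 7.50, 7.44 and 7.23 with MAPKi, 7.76, 7.75 and 7.80 with HDACi and 6.68, 6.78 and 6.50 with the combination, with no overlap. Its changes were -1.06, -0.68 and -1.80 (quantile -0.26, -0.26 and -0.55), a pattern in which MAPKi was the lower of the single treatments (-0.38, adjusted p = 0.013) on the deposited scale but level with HDACi on the quantile scale (-0.002). The call between the single treatments was lost without MAPKi replicate 3 (0.066). U2AF1L4, a small-subunit paralog, read 5.92, 5.91 and 5.67 in the vehicle arrays, 5.70, 5.58 and 5.66 with MAPKi, 4.70, 4.92 and 5.14 with HDACi and 4.62, 5.17 and 4.34 with the combination. Its MAPKi arrays overlapped vehicle while every HDACi and combination array lay below both. The change of U2AF1L4 was -0.18 with MAPKi (adjusted p = 0.35), -0.91 with HDACi and -1.12 with the combination. Its quantile values were 0.28 (adjusted p = 0.21), -0.77 and -0.59, so that the MAPKi value, which passed on neither scale, changed sign. MAPKi stood above HDACi by 0.73 (adjusted p = 0.0021, quantile 1.04).

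The PRPF genes code mainly for proteins of the U4/U6.U5 tri-snRNP and the Prp19 complex. All 10 were lower with HDACi and with the combination and 9 with MAPKi, with medians of -0.57 (HDACi), -1.51 (combination) and -0.85 (MAPKi). Quantile normalization left 5 lower with HDACi, 6 with the combination and 4 with MAPKi, where PRPF18 was higher (0.37). The shares of all genes lower on that scale were 21.1%, 24.2% and 13.9%. On the deposited scale these shares were 37.2%, 74.3% and 66.2%. PRPF18, a factor of the second splicing step, was the exception with MAPKi on the deposited scale as well (-0.28, adjusted p = 0.064, and 0.044 or 0.027 without vehicle replicate 2 or 3), and its HDACi call (-0.36, adjusted p = 0.034) was lost without vehicle replicate 1 (0.20), HDACi replicate 1 (0.07) or HDACi replicate 3 (0.12).

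PRPF31, which holds the tri-snRNP together and is mutated in a form of inherited retinal degeneration, read 8.97, 8.69 and 8.84 in the vehicle arrays, 7.71, 7.80 and 7.51 with MAPKi, 7.28, 7.40 and 7.60 with HDACi and 6.72, 6.74 and 6.71 with the combination. MAPKi and HDACi arrays overlapped each other and lay between vehicle and the combination. It changed by -1.16 ± 0.12, -1.41 ± 0.12 and -2.11 ± 0.12 with MAPKi, HDACi and the combination (quantile -0.35, -0.98 and -0.86). PRPF31 was the lowest PRPF gene in the combination on both scales.

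PRPF8, the large U5 protein at the centre of the spliceosome, read 11.38, 11.26 and 11.39 in the vehicle arrays, 10.55, 10.54 and 10.42 with MAPKi, 10.48, 10.57 and 10.62 with HDACi and 9.82, 9.87 and 9.92 with the combination. The single treatments overlapped (difference -0.06, adjusted p = 0.66), and the combination lay below both. Against vehicle PRPF8 changed by -0.84, -0.79 and -1.47 with a standard error of 0.10 (quantile -0.21, -0.55 and -0.48). PRPF19, the ubiquitin ligase that names its complex, read 8.68, 8.58 and 8.74 in the vehicle arrays, 7.47, 7.51 and 7.42 with MAPKi, 7.99, 7.96 and 8.16 with HDACi and 7.18, 7.22 and 6.97 with the combination. It was lower with MAPKi (-1.20, quantile -0.39) than with HDACi (-0.63, quantile -0.22). That difference was -0.56 (adjusted p = 0.00029), and -0.16 on the quantile scale, where it did not pass.

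PRPF4, a U4/U6 protein, showed the largest gap of this kind after SNRPB2: it read 8.76, 8.46 and 8.84 in the vehicle arrays, 7.41, 7.42 and 7.28 with MAPKi, 8.08, 8.18 and 8.27 with HDACi and 6.79, 6.90 and 7.03 with the combination. MAPKi minus HDACi was -0.80 ± 0.12 (adjusted p = 2.7e-05, quantile -0.40), and no array overlapped. PRPF6 and PRPF38A were at -1.75 and -1.91 with the combination (quantile -0.49 and -0.61). PRPF3 and PRPF39 were at -1.38 and -1.28 with quantile values of -0.09 and 0.03, that is, with little difference from the rest of the array. With HDACi, PRPF3 was at -0.30 (adjusted p = 0.024) on the deposited scale and at 0.10 on the quantile scale. The deposited-scale call was lost without vehicle replicate 1 or 3 or HDACi replicate 1 or 2 (0.061 to 0.081). PRPF40B, a U1-associated protein, had the smallest fall of the family with the combination. It read 7.01, 6.72 and 6.82 in the vehicle arrays, 6.13, 6.08 and 6.17 with MAPKi, 6.12, 6.57 and 6.31 with HDACi and 5.84, 6.23 and 5.85 with the combination. Its combination value was -0.88 on the deposited scale and 0.09 on the quantile scale.

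The SR proteins had smaller median falls than the snRNP proteins, and on the quantile scale their medians lay above 0. On the deposited scale 8 of 9 were lower with MAPKi, 6 with HDACi and 9 with the combination, with medians of -0.54, -0.31 and -1.10. The quantile medians were 0.15, 0.07 and 0.10, and the 9 genes split: 1 was lower and 4 higher with MAPKi, 3 and 1 with HDACi, and 2 and 3 with the combination. All genes split on that scale too, with 13.9%, 21.1% and 24.2% lower and 15.1%, 18.5% and 22.1% higher. On the deposited scale 66.2%, 37.2% and 74.3% of all genes were lower. No test compared the families.

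SRSF2, which binds exonic enhancers, was the one SR gene lower in all 3 treatments on both scales. It read 10.19, 10.18 and 10.18 in the vehicle arrays, 9.25, 9.13 and 9.01 with MAPKi, 9.59, 9.65 and 9.64 with HDACi and 8.59, 8.58 and 8.65 with the combination, with no overlap and little spread. Its changes were -1.05, -0.56 and -1.57 with a standard error of 0.10 (quantile -0.29, -0.21 and -0.38). SRSF4 had the lowest combination value of the family. It read 8.59, 8.25 and 8.45 in the vehicle arrays, 7.62, 7.53 and 7.43 with MAPKi, 7.26, 7.39 and 7.33 with HDACi and 6.49, 6.67 and 6.43 with the combination, and HDACi and MAPKi arrays did not overlap, although their difference of 0.20 had an adjusted p of 0.15. The quantile values of SRSF4 were -0.09 with MAPKi, -0.66 with HDACi and -0.67 with the combination.

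SRSF3, a small SR protein that also serves mRNA export, read 10.73, 10.46 and 10.48 in the vehicle arrays, 9.68, 9.84 and 9.63 with MAPKi, 10.22, 10.34 and 10.32 with HDACi and 9.39, 9.50 and 9.47 with the combination. Its HDACi change of -0.27 only just passed (adjusted p = 0.049), and the call was lost without any of 10 single arrays (0.05 to 0.20). SRSF3 fell by 0.84 with MAPKi and by 1.10 with the combination, but its quantile values were -0.11, 0.08 and 0.01.

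SRSF5, SRSF6 and SRSF11 formed the other end of the family. SRSF5 read 8.84, 8.51 and 8.65 in the vehicle arrays, 8.32, 8.36 and 8.09 with MAPKi, 8.62, 8.59 and 8.58 with HDACi and 7.82, 7.81 and 7.69 with the combination, and its HDACi arrays overlapped vehicle (-0.07, adjusted p = 0.64). It was lower with MAPKi (-0.41) and the combination (-0.89) on the deposited scale, and higher in all 3 on the quantile scale (0.41, 0.33 and 0.40). SRSF6 (-0.54 and -0.90) and SRSF11 (-0.47 and -0.94) did likewise with MAPKi and the combination, with quantile values of 0.22 and 0.21, and 0.32 and 0.27. For these 3 genes the direction thus turned with the scaling.

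SRSF8, a retrocopy relative of SRSF2, was the SR gene for which HDACi lay furthest below MAPKi. It read 8.84, 8.85 and 9.01 in the vehicle arrays, 8.47, 8.64 and 8.40 with MAPKi, 8.03, 8.16 and 8.17 with HDACi and 7.66, 7.75 and 7.75 with the combination, so that HDACi lay below MAPKi by 0.38 ± 0.10 (adjusted p = 0.0056) and by 0.80 on the quantile scale. Signal of close copies may be shared on an array, and HNRNPA1, HNRNPA1L2, HNRNPCL1, HNRNPCL2 and SRSF8 are uncertain in this respect. SRSF12 was dim, at 4.99, 4.71 and 4.47 in the vehicle arrays, 4.55, 4.60 and 4.55 with MAPKi, 5.23, 4.76 and 4.87 with HDACi and 4.50, 4.09 and 4.36 with the combination. Its combination value of -0.40 (adjusted p = 0.021) came from overlapping arrays, was -0.04 on the quantile scale, and did not pass without vehicle replicate 1 (0.12) or combination replicate 2 (0.098). With MAPKi and HDACi SRSF12 was at -0.16 and 0.23 (quantile 0.15 and 0.25), none of which passed. SRSF7 changed by -0.79, -0.35 and -1.20 (quantile 0.04, 0.07 and 0.10).

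The hnRNP genes ranged from among the lowest members to the only riser. Of 20, 17 were lower with MAPKi, 15 with HDACi and 18 with the combination, at medians of -0.86, -0.55 and -1.39. After quantile normalization, 6 of the 20 were lower and 1 higher with MAPKi, 9 and 2 with HDACi, and 12 and 3 with the combination, at medians of -0.13, -0.27 and -0.36. There 13.9%, 21.1% and 24.2% of all genes were lower and 15.1%, 18.5% and 22.1% higher. On the deposited scale 66.2%, 37.2% and 74.3% of all genes were lower.

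HNRNPAB had the lowest combination value of the family, at 10.56, 10.36 and 10.44 in the vehicle arrays, 9.18, 9.11 and 8.94 with MAPKi, 9.46, 9.55 and 9.75 with HDACi and 8.33, 8.35 and 8.23 with the combination. The groups did not overlap. It changed by -1.38, -0.87 and -2.15 with a standard error of 0.11 (quantile -0.61, -0.52 and -0.93). HNRNPK, a poly(C)-binding protein, read 10.95, 10.76 and 10.86 in the vehicle arrays, 10.03, 10.05 and 9.91 with MAPKi, 10.12, 10.16 and 10.17 with HDACi and 9.37, 9.33 and 9.36 with the combination. Its changes of -0.86, -0.70 and -1.50 became -0.13, -0.37 and -0.41 on the quantile scale, lower there with HDACi and the combination. HNRNPM (-0.93, -1.04 and -1.89, quantile -0.20, -0.71 and -0.77), HNRNPR (-1.20, -0.79 and -1.85, quantile -0.42, -0.44 and -0.61) and HNRNPL (-1.08, -0.94 and -1.68, quantile -0.31, -0.60 and -0.46) lay between HNRNPAB and HNRNPK with MAPKi and with the combination on both scales, while with HDACi HNRNPM and HNRNPL read below both and HNRNPR between them.

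HNRNPA1, a repressor of splice site use and one of the best-studied hnRNPs, read 8.95, 8.75 and 8.99 in the vehicle arrays, 8.19, 8.19 and 8.07 with MAPKi, 8.53, 8.62 and 8.55 with HDACi and 7.84, 7.88 and 7.85 with the combination. It was lower in each treatment on the deposited scale, at -0.74, -0.33 and -1.04, without overlap. Its quantile values were 0.07, 0.08 and 0.24, the last of which passed as higher, so the direction of HNRNPA1 in the combination turned with the scaling. The HDACi call was lost without vehicle replicate 3 (0.055). HNRNPA1L2 read 6.47, 6.40 and 5.91 in the vehicle arrays, 6.18, 6.39 and 6.09 with MAPKi, 6.002, 5.57 and 5.74 with HDACi and 5.53, 5.21 and 4.75 with the combination. Its MAPKi arrays overlapped vehicle (-0.04), the combination lay below MAPKi (-1.06, adjusted p = 0.00017, quantile -0.91), and its HDACi call (-0.48, adjusted p = 0.041) was lost without vehicle replicate 1 or 2, MAPKi replicate 3, or HDACi replicate 2 or 3 (0.055 to 0.17).

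With HDACi, HNRNPLL and HNRNPC lay furthest from the median of the family. HNRNPLL regulates the splicing of the CD45 transcript in lymphocytes, and HNRNPC binds uridine tracts in nascent RNA. Their upstream sequences are shown because they, with SRSF5, were the members that passed as higher with HDACi on the quantile scale. Capitals mark CCAAT boxes (CCAAT), GC boxes and ETS-type letters on either strand, from RefSeq on GRCh38.p14, at chr2:38602929-38603178 (minus strand) for HNRNPLL and chr14:21269443-21269692 (minus strand) for HNRNPC.
HNRNPLL: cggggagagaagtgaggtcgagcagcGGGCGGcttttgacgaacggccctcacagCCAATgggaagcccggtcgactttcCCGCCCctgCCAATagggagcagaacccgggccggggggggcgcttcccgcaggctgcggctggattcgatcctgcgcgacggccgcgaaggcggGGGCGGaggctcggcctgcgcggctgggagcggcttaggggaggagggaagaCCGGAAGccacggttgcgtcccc
HNRNPC: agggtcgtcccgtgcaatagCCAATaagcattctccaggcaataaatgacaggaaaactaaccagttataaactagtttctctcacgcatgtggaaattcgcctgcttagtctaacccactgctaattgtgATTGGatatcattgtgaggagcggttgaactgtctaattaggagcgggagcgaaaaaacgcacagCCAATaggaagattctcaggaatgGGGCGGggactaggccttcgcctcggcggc
The ETS-type letters begin 23 bases before the start in HNRNPLL, and HNRNPC has 3 CCAAT boxes and 1 GC box.

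HNRNPLL read 7.16, 7.29 and 7.21 in the vehicle arrays, 6.85, 6.77 and 6.83 with MAPKi, 7.75, 7.61 and 7.49 with HDACi and 6.81, 6.79 and 6.78 with the combination. Every HDACi array lay above every vehicle array, and MAPKi and combination arrays lay below. It rose by 0.40 ± 0.10 with HDACi (1.32-fold, adjusted p = 0.003) and fell by 0.40 with MAPKi and by 0.42 with the combination. It was higher than vehicle on the quantile scale in all 3 treatments (0.29, 0.71 and 0.74). MAPKi minus HDACi was -0.80 (adjusted p = 4.6e-06, -0.42 on the quantile scale), and the combination differed from MAPKi by -0.02 (adjusted p = 0.87) or by 0.45 on the quantile scale.

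HNRNPC read 8.27, 7.67 and 7.85 in the vehicle arrays, 7.59, 7.49 and 7.44 with MAPKi, 8.45, 8.27 and 8.03 with HDACi and 7.48, 7.54 and 7.15 with the combination. The HDACi arrays overlapped vehicle, since vehicle replicate 1 stood above the other two. Its HDACi value was 0.32 (adjusted p = 0.099), and 0.70 on the quantile scale. Without vehicle replicate 1 it was 0.49 (0.014), and without HDACi replicate 3 0.43 (0.047). The MAPKi value was -0.42 (adjusted p = 0.024) and did not pass without vehicle replicate 1 (-0.25, 0.15), MAPKi replicate 2 (0.054) or MAPKi replicate 3 (0.077). HNRNPC with the combination was -0.54 on the deposited scale and 0.74 on the quantile scale.

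The dimmest members were HNRNPCL1, HNRNPA3, HNRNPCL2, SRSF12 and SNRPF. HNRNPCL1 read 2.06, 2.29 and 2.30 in the vehicle arrays, 2.27, 2.42 and 2.29 with MAPKi, 2.11, 2.06 and 2.06 with HDACi and 2.15, 2.24 and 2.18 with the combination, near the floor of the array, and differed from vehicle by 0.10, -0.14 and -0.03, none of which passed. HNRNPCL1 did pass as lower with HDACi on the quantile scale (-0.22, adjusted p = 0.047). HNRNPA3, at 3.42 to 3.84 in vehicle, was lower with the combination (-0.96, quantile -0.89). HNRNPCL1 and HNRNPA3 lay in the dimmest of the 10 bins.

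LSM12, an RNA-binding adaptor with an Lsm domain and the only LSM gene measured, read 7.67, 7.59 and 7.52 in the vehicle arrays, 6.80, 6.79 and 6.64 with MAPKi, 6.70, 6.74 and 6.77 with HDACi and 5.96, 6.13 and 5.90 with the combination. The single treatments overlapped and the combination lay below them. LSM12 changed by -0.85, -0.86 and -1.60 with a standard error of 0.10 (quantile -0.11, -0.48 and -0.53).

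Comparing the single treatments directly, MAPKi was lower than HDACi for 26 members and higher for 5, where 39.4% of all genes were lower and 7.25% higher. After quantile normalization this turned to 6 lower and 22 higher, against 20.4% and 24.6% of all genes, with a median of 0.15 in place of -0.26. The split therefore depends on how the general shift, which was larger with MAPKi, is treated. On the deposited scale without the dimmest 40% of genes, 52.1% of members and 53.1% of all genes left were lower. SNRPB2, PRPF4 and HNRNPLL (-0.86, -0.80 and -0.80) were the largest of the 26, and U2AF1L4, U2AF2 and SRSF8 (0.73, 0.57 and 0.38) of the 5. These 6 kept their direction on the quantile scale (-0.49, -0.40 and -0.42, and 1.04, 0.99 and 0.80).

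Adding entinostat to MAPKi lowered 47 members and raised 0, where 40.6% of all genes were lower and 8.68% higher, with a median of -0.64. After quantile normalization 26 were lower and 2 higher (HNRNPC and HNRNPLL), against 23.5% and 19.9%, with a median of -0.19. Adding MAPKi to entinostat lowered 51 and raised 0, against 72.6% and 0.644%, with a median of -0.82. After quantile normalization this became 9 lower and 4 higher (HNRNPUL1, PRPF40B, SRSF8 and U2AF2), against 11.6% and 11.4%, with a median of -0.04. The 9 were SNRPA1, SNRPB2, SNRPD1, SNRPD3, SNRPF, U2AF1, PRPF4, PRPF38A and HNRNPAB, of which 5 are SNRP genes.

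The order of the members was partly kept when a treatment was added to the other, and least for MAPKi on the quantile scale. HDACi against vehicle and the combination against MAPKi share no array, and their changes correlated over the 54 members with Pearson's r of 0.728 and Spearman's rho of 0.700 (0.677 and 0.712 on the quantile scale). MAPKi against vehicle and the combination against HDACi correlated with r of 0.743 and rho of 0.699 (0.594 and 0.455). Over all 14599 genes Pearson's r was 0.760 and 0.735, so the members were like the array in this. Points share brightness and array scaling, and these are descriptions.

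**Figure D4:**
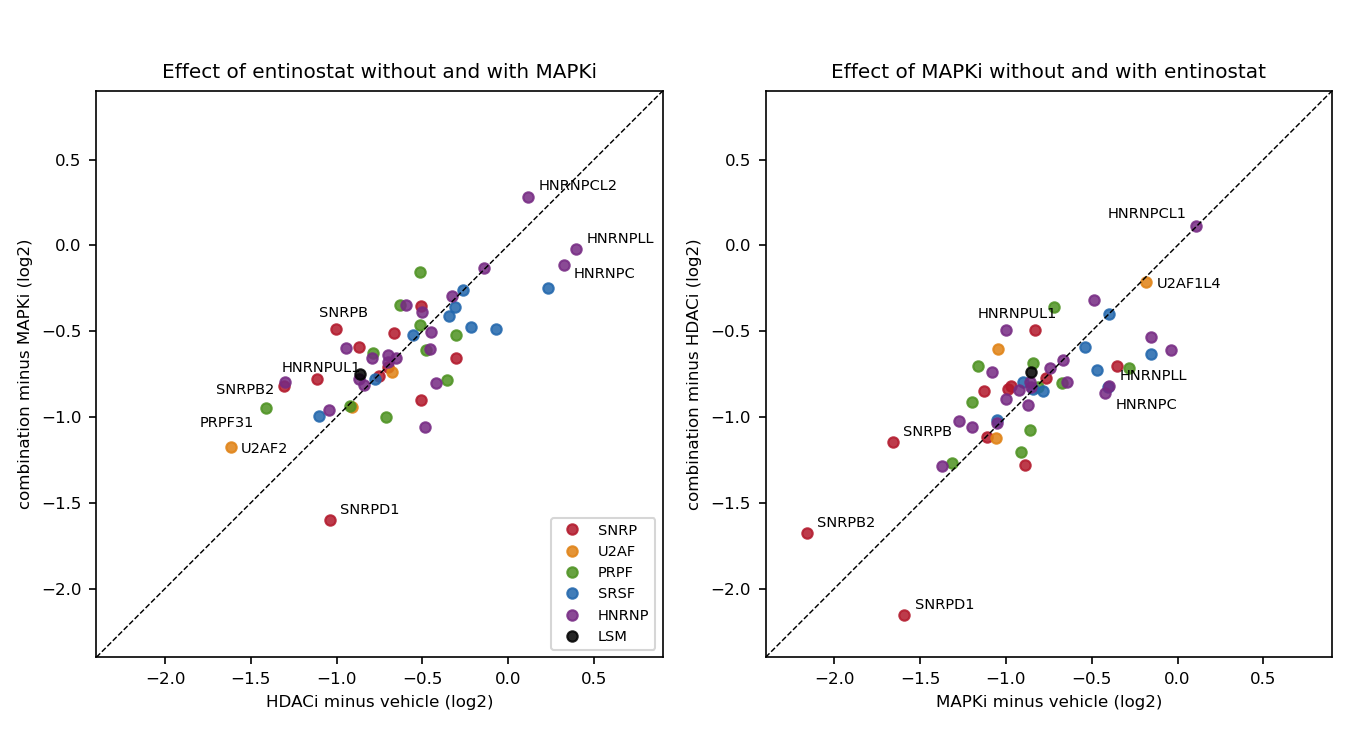
Log2 changes of the 54 members on the deposited scale, coloured by family. Left, entinostat alone (x axis, HDACi minus vehicle) against entinostat added to MAPKi (y axis). Right, MAPKi alone (x axis) against MAPKi added to entinostat (y axis). The dashed line marks equal changes, and the axes of a panel share no arrays. SNRPD1 lies below the line in both panels and HNRNPUL1 above it.

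For nearly all members the combination did not depart detectably from the sum of the single treatments on the log2 scale. The interaction, (combination - MAPKi) - (HDACi - vehicle), passed for 1 of 54 members, HNRNPUL1, as higher, and for 0 as lower, where 3.16% and 4.84% of all genes passed. The median interaction of the members was 0.01. That count rests on the settings of the fit: 5 were higher and 3 lower with trend and robust variance, where 4.37% and 7.16% of all genes were, and 5 and 2 of the 48 members left without the dimmest genes, where 613 and 963 of the 8760 genes left were. On the quantile scale 7 were higher (HNRNPL, HNRNPUL1, PRPF31, SNRPA, SNRPB, SNRPB2 and U2AF2) and 2 lower (SNRPD3 and SRSF5), against 6.21% and 6.26% of all genes. A positive value means that the fall with all drugs was smaller than the sum of the single falls.

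HNRNPUL1, an hnRNP U-like protein with roles in RNA processing and DNA repair, read 11.48, 11.48 and 11.45 in the vehicle arrays, 10.50, 10.56 and 10.37 with MAPKi, 10.08, 10.18 and 10.25 with HDACi and 9.67, 9.71 and 9.64 with the combination. The groups were separate, with HDACi below MAPKi. It changed by -0.997, -1.30 and -1.79 with a standard error of 0.10 (quantile -0.33, -1.02 and -0.78). Its interaction was 0.50 ± 0.14 (adjusted p = 0.029), and 0.57 on the quantile scale. The deposited-scale call was lost when any one of 9 of the 12 arrays was left out, all but vehicle replicate 1, MAPKi replicate 2 and HDACi replicate 3, with values of 0.45 to 0.52 and adjusted p of 0.052 to 0.086. SNRPB2 (0.49), SNRPB (0.52), PRPF31 (0.46) and U2AF2 (0.44) had interactions of like size on the deposited scale, with adjusted p of 0.052, 0.064, 0.11 and 0.10. That of SNRPB2 passed without vehicle replicate 2 (0.033) or combination replicate 2 (0.040). As lower, besides SNRPD1, PRPF18 passed without vehicle replicate 1 (0.025) and SNRPD3 without MAPKi replicate 3 (0.045).

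Most other genes of the splicing machinery were lower on the deposited scale too. Of 148 such genes in 6 lists, 113 were measured, and 109, 91 and 111 were lower with MAPKi, HDACi and the combination, while 0, 2 and 0 were higher. Of all genes, 66.2%, 37.2% and 74.3% were lower. The medians of the 113 were -0.82, -0.67 and -1.53. After quantile normalization 22, 64 and 70 were lower and 13, 11 and 12 higher, with medians of -0.06, -0.31 and -0.33, where 13.9%, 21.1% and 24.2% of all genes were lower and 15.1%, 18.5% and 22.1% higher. With MAPKi the counts on this scale were thus near the shares of the array.

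The counts with the combination differed between lists, and no test compared the lists. Of all genes, 74.3% were lower with the combination on the deposited scale. On the quantile scale 24.2% were lower and 22.1% higher. Of 15 measured genes for snRNP assembly, 15 were lower with the combination on the deposited scale and 14 on the quantile scale, with medians of -1.72 and -0.62. GEMIN4 and SART3, of the SMN complex and of snRNP recycling, were both at -2.16 (quantile -0.98 and -1.05). Of 26 further snRNP proteins, 26 were lower with the combination, 19 lower and 2 higher on the quantile scale, and EFTUD2, the U5 GTPase, fell by 2.30 (quantile -1.10). Of 24 genes of the Prp19 complex and activated spliceosome, 24 and 16 were lower. Of 26 other regulators of splice choice, 24 were lower on the deposited scale, and 10 lower and 6 higher on the quantile scale. For the exon junction and mRNA export, 12 of 19 listed genes were measured, of which 12 were lower, and 9 lower and 1 higher on the quantile scale. Of 10 SR protein kinases and related regulators, 10 were lower on the deposited scale but 2 lower and 3 higher on the quantile scale, and SRPK2, which phosphorylates SR proteins, was at -0.62 and 0.65.

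ALYREF, an mRNA export adaptor, had the largest fall in these lists, at -1.47, -2.03 and -2.87 with MAPKi, HDACi and the combination (quantile -0.73, -1.64 and -2.05). EIF4A3 of the exon junction complex, in the same list, had values of -1.05, 0.06 and -0.73 (quantile -0.23, 0.44 and 0.52). NOVA1, a neuronal splicing regulator, rose with HDACi by 0.60 (adjusted p = 0.0007) and was at 0.22 with the combination (adjusted p = 0.11). The quantile values of NOVA1 were 0.55 (adjusted p = 0.0061) and 0.40 (adjusted p = 0.03).

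Promoter letters were counted over the 250 bases before each RefSeq start on both strands, for 49 members with 69 starts. HNRNPA1, PRPF3, PRPF39, SNRPD1 and SRSF2 had no entry. The ETS-type letters CCGGAAG occurred in 14 of the 49 (28.6%) and in 13.98% of 15842 coding genes. By family they were in 7 of 10 SNRP genes, 1 of 3 U2AF, 2 of 8 PRPF, 2 of 8 SRSF and 2 of 19 HNRNP genes. The CCAAT box was in 27 members (55.1%, against 40.2% of coding genes) and in 16 of 19 HNRNP genes. The GC box GGGCGG was in 29 (59.2%, against 62.1%) and the E-box CACGTG in 4 (8.16%, against 9.73%). The AP-1 letters TGACTCA and the CRE letters TGACGTCA were in 0 members, against 4.58% and 2.73%. A core of the NRF1 motif, GCGCATGCG, was in 4 members (8.16%, against 2.74%), HNRNPH1, SRSF7, U2AF1 and U2AF1L4. That core replaced a form longer by a letter, which had matched a smaller share of members than of coding genes, so the direction for NRF1 turns with that letter. A gene counts if any of its starts has a match, GC boxes may overlap one another, and a match is a run of letters and not a shown binding site. HNRNPLL and SRSF5, which were higher than vehicle on the quantile scale in all 3 treatments, carry the ETS-type letters as well as SNRPB2 and SNRPB.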

How the data were processed

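The authors deposited a table of linear intensities, 1 per probe set and array, for 12 single-colour Affymetrix arrays. RMA and Transcriptome Analysis Console are named in the submitters' processing notes, without versions. How arrays were scaled to each other is not stated, nor whether the ERCC spike-in RNA added before extraction, per the labels, was used. The genome build of the array annotation is not given in the sources used here.

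A probe table named 14783 of 29592 rows by 1 symbol each and 0 by several, and 14809 rows had no name here. Symbols, brought up to date through Entrez IDs with RefSeq for GRCh38.p14, gave 14599 genes. The brightest row was used for the 169 genes with more than 1. The log2 of the deposited intensity was fitted in R 4.3.3 by lmFit, contrasts.fit and eBayes of limma 3.58.1, on all arrays with 1 mean per group, 8 residual and 7.68 prior degrees of freedom. A gene was called at an adjusted p under 0.05, by Benjamini-Hochberg over all 14599 genes, in 7 comparisons. Errors after ± are limma's standard errors unless called SD. The small number of arrays limits the precision of every value. The members, the lists of other splicing genes, the motifs and the comparisons were chosen with earlier results of these data known, so no count over them is independent evidence. 6 pseudogene rows with the same prefixes were left out. Values in every array were given for the lowest and highest member of each family in the combination, the 3 largest rises and falls that passed in each comparison, and a fixed set, with HNRNPC and SRSF5 added after their values were seen. Of the other splicing genes, up to 2 with the largest fall and 2 with the largest rise in the combination per list were named. Alternatives were array median subtraction, quantile and cyclic loess normalization, no dim genes, trend and robust variance, the mean of a gene's rows, the compared arrays alone, the replicate number as a block, and each array left out. Quantile normalization combined with the block or with an array left out was added after the data were seen. The fit was tested on simulated data. The NRF1 motif was first searched in a form longer by a letter. That search was removed after its result, fewer matches in members than in coding genes, had been seen, because a sequence of that length could not be kept with the search, and the shorter core was chosen after that. Promoter letters were searched with Python 3.11.15, and figures drawn with matplotlib 3.10.9.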

Additional observations from a re-analysis of the deposited data

Results flagged for a closer look

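One result stood out by a test of a difference between groups. The effect of entinostat on HNRNPUL1 differed with and without MAPKi: it was -1.30 against vehicle and -0.80 against MAPKi, an interaction of 0.50 ± 0.14 on the log2 scale (limma, adjusted p = 0.029 over all genes). On the quantile scale these were -1.02, -0.45 and 0.57. It is 1 of 54 members to pass, where 3.16% of all genes passed as higher and 4.84% as lower, and leaving out any one of 9 arrays ended the call. Single arrays were not tested for standing apart, since the test of gaps within a group needs at least 4 samples.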

How the results depend on the processing

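The limits lie mainly in scaling. The order below is MAPKi, HDACi and combination against vehicle, combination against MAPKi, combination against HDACi, MAPKi against HDACi, and interaction. With quantile normalization, 19, 29, 33, 26, 9, 6 and 2 members were lower, 6, 3, 6, 2, 4, 22 and 7 higher, and medians were -0.127, -0.264, -0.420, -0.193, -0.035, 0.153 and 0.080. The replicate number as a block on that scale gave the same counts and medians except 21 higher for MAPKi against HDACi. With cyclic loess, 20, 26, 33, 23, 12, 10 and 2 were lower, 6, 3, 6, 3, 2, 17 and 7 higher, and medians were -0.138, -0.235, -0.361, -0.152, -0.028, 0.083 and 0.108. Of all genes, 15.6%, 19.7%, 22.3%, 19.3%, 11.5%, 23.4% and 6.78% were lower with cyclic loess. Those higher were 15.4%, 21.7%, 23.8%, 21.3%, 9.64%, 21.0% and 6.66%. With the array median subtracted, 34, 37, 41, 35, 26, 8 and 1 were lower, 3, 3, 4, 1, 1, 18 and 6 higher, and medians were -0.307, -0.436, -0.700, -0.384, -0.224, 0.089 and 0.060. These methods remove the general shift by construction. Without the dimmest 40% of genes (48 members left), HDACi against vehicle had 2 higher, and the interaction 2 lower and 5 higher. Trend and robust variance gave 3 lower and 5 higher for the interaction, and the cause was not tested.

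On the deposited scale, the replicate number as a block gave 2 higher members for HDACi against vehicle, and 49, 44, 52, 47, 51, 25 and 0 lower. Of all genes, 10.5% were higher with HDACi in that fit. Those lower were 67.0%, 37.4%, 74.8%, 41.0%, 73.4%, 39.5% and 4.87% in the same order. Numbers were not taken as pairs: after removal of group means, same-numbered arrays correlated across genes with a median r of 0.0324 over 18 pairs (lowest -0.106), other pairs with -0.0111, and for 9 of 12 arrays the mean r was highest with arrays of the same number.

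Leaving out single arrays, members lower against vehicle ranged from 45 to 48, 40 to 45 and 51 to 53 on the deposited scale, and 14 to 20, 23 to 29 and 32 to 35 on the quantile scale. Members higher ranged from 0 to 0, 1 to 2 and 0 to 0, and on the quantile scale from 4 to 7, 3 to 3 and 4 to 6. Medians ranged from -0.896 to -0.801, -0.687 to -0.600 and -1.548 to -1.453, and on the quantile scale from -0.146 to -0.125, -0.285 to -0.243 and -0.432 to -0.364. For the combination against MAPKi and against HDACi, 44 to 48 and 48 to 52 were lower and 0 higher, with medians of -0.687 to -0.601 and -0.820 to -0.781. On the quantile scale 23 to 27 and 7 to 11 were lower, 1 to 4 and 1 to 3 higher, with medians of -0.247 to -0.178 and -0.057 to -0.005. For MAPKi against HDACi, 20 to 26 were lower and 3 to 6 higher (quantile 3 to 6 and 17 to 22), with medians of -0.297 to -0.207 (quantile 0.112 to 0.161). Without MAPKi replicate 2, 3 members were higher. For the interaction, 0 to 2 were lower and 0 to 1 higher (quantile 0 to 2 and 5 to 8), with medians of -0.025 to 0.053 (quantile 0.062 to 0.101). The shares of all genes were not counted with an array left out.

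Of the members named by the rule for values in every array, in the comparisons that named them, those that changed sign were HNRNPA1 with MAPKi (0.072 quantile, 0.035 loess), HDACi (0.077, 0.110) and the combination (0.241, 0.264), SRSF3 with HDACi (0.076, 0.084) and the combination (0.010, 0.041), PRPF40B with the combination (0.093, 0.093), and, with the array median subtracted, HNRNPCL1 (0.772) and SRSF12 (0.397) with the combination.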

Other observations

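The rows of 6 pseudogenes carry the same prefixes as the members. HNRNPA1P10 was lower than vehicle by 0.51 with MAPKi, by 0.43 with HDACi and by 1.00 with the combination (quantile 0.09, -0.38 and -0.38), and its sequence is close to that of HNRNPA1. It was bright, at a mean log2 of 12.2 in vehicle, where HNRNPA1 read 8.89. With the combination HNRNPA1P10 passed as lower on the quantile scale (adjusted p = 0.00032), where HNRNPA1 passed as higher (0.24). With cyclic loess HNRNPA1P10 did not pass there (-0.11, adjusted p = 0.19). Whether these rows share signal was not tested. HNRNPKP3 was lower by 0.81, 0.47 and 0.85 (quantile -0.56, -0.40 and -0.51). HNRNPA1P33, HNRNPA3P1, SNRPD2P2 and SRSF3P2, all dim, did not pass against vehicle in any treatment, with combination values of -0.52, -0.20, -0.41 and 0.05.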
